A study of Mus musculus with 72 samples.

Results

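Transcripts of the cytosolic ribosomal proteins were followed in the blood of irradiated mice. A gene was a member where its name on the array was Rpl or Rps with a number and at most 1 further letter, or was Rplp0, Rplp1, Rplp2 or Rpsa. By this rule 80 of the 31093 gene names on the array were members, with 183 probes, and the brightest probe of each gene was used. Of these, 77 passed the filter on dim probes, among 16118 genes that passed it, and every one of the 77 was well above background on all 72 arrays. They comprised 32 genes of the small and 45 of the large subunit. Rpl3l, Rpl10l and Rpl39l, relatives of Rpl3, Rpl10 and Rpl39, did not pass and were not tested.

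The cytosolic ribosome translates messenger RNA into protein and is built from ribosomal RNA and from a set of ribosomal proteins that is needed in equal amounts. Most ribosomal protein mRNAs begin with a C followed by a run of pyrimidines, the terminal oligopyrimidine (TOP) tract, through which their translation and stability follow growth signals. Lymphocytes hold these mRNAs in abundance, and reticulocytes, the young red cells of blood, still carry them after losing their nuclei. Several free ribosomal proteins, Rpl5 and Rpl11 among them, bind Mdm2, the ubiquitin ligase that degrades p53, and Rps27l, a close relative of Rps27, is a known p53 target gene.

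Start-site windows of 9 members are shown because they contain or lack the TOP tract that defines this class of mRNA. Each runs from 10 bases before to 20 bases from the RefSeq transcription start (build GRCm38.p6), 5′ to 3′ on the gene's strand, with the longest run of C and T in capitals.
Rps6, chr4:86857348-86857377, minus strand: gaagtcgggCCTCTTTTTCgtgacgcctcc
Rpl28, chr7:4792955-4792984, plus strand: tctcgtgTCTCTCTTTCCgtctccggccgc
Rplp2, chr7:141447641-141447670, plus strand: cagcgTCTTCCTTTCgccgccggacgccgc
Rps18, chr17:33955646-33955675, minus strand: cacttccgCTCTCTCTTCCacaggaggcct
Rpl38, chr11:114668570-114668599, plus strand: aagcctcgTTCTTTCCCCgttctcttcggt
Rps27, chr3:90213629-90213658, minus strand: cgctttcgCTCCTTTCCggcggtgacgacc
Rps27l, chr9:66946076-66946105, plus strand: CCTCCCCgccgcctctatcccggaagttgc
Rpl5, chr5:107900518-107900547, plus strand: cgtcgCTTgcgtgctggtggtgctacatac
Rps15, chr10:80292421-80292450, plus strand: cagagCTCgcgataactgcgcaagcgcagc
In Rps6, Rpl28, Rplp2, Rps18, Rpl38 and Rps27 the annotated start base was a C followed by at least 4 pyrimidines, and in Rps27l, Rpl5 and Rps15 it was not. RefSeq promoters were found for 59 of the 80 members, and 13 of these (22%) had such a start, against 813 of 27025 genes (3.01%). CTTTC or CTTCC lay anywhere in the window of 23 members (39%) and of 3100 genes (11.5%), and the reverse complements GAAAG or GGAAG in 9 members (15.3%) and in 12.4% of all genes. A window without the tract says only that these letters were not at the annotated start.

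The probes were 60 bases long, and ribosomal protein genes have many near-identical copies in the mouse genome. The array's annotation (build mm9) placed the probe used on the gene's own chromosome for 22 of the 77 members, on another chromosome for 54, and gave no position for Rps27l. Signal from a gene and from its copies therefore cannot be told apart for most members. Probes of 4 genes to which the results turn are shown, in lower case, with the stop codon of Rps27l in capitals.
Rps27l, no mm9 position given: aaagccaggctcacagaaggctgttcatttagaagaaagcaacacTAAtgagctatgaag
Rps27, chr11:69387456-69387515, plus strand: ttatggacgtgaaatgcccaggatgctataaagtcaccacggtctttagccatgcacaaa
Rps15, chr8:130085663-130085722, plus strand: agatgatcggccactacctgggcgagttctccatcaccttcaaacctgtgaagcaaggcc
Rpl5, chr13:22768563-22768622, plus strand: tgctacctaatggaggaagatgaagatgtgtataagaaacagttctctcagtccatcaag
The Rps27l probe crossed the stop codon, which began at base 46 and left 12 bases after it. Each of the others had at least 1 reading frame without a stop codon. The Rps27 probe shown is not its brightest, whose values are given below, and its differences from controls were alike (-0.89 at day 1 after 1 Gy of neutrons and -1.04 at both days after 4 Gy of x-rays, on the log2 scale).

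Male C57BL/6 mice had been sham-irradiated or given 0.25 or 1 Gy of neutrons, whose beam also carried γ rays, or 1 or 4 Gy of x-rays, and blood was drawn by cardiac puncture at day 1, 3 or 7. Globin RNA was reduced before each mouse's RNA was hybridized to its own one-colour array. Day 1 held 5 controls, 6 mice at 0.25 Gy and 6 at 1 Gy of neutrons, 6 at 1 Gy and 5 at 4 Gy of x-rays. Day 3 held 5 controls, 6 mice at 0.25 Gy of neutrons and 5 at 1 Gy of x-rays. Day 7 held 6 controls, 5 mice at 0.25 Gy and 6 at 1 Gy of neutrons, 5 at 1 Gy and 6 at 4 Gy of x-rays.

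Arrays differed in ways that touch the members. The median probe signal was 9.52 to 16.8 on the arrays of day 7 after 1 Gy of neutrons and 32.2 to 50.5 on those of the day 7 controls. After 4 Gy of x-rays at day 7 it was 46.2 to 96.4. At day 1 it was 66.8 to 156.5 after 1 Gy of neutrons and 49.7 to 73.6 in the controls. Transcripts of hepatocytes, the main cells of the liver, were present at levels that varied between mice of a group, and B cell and red cell transcripts moved with dose and day. Hepatocyte and B cell values are given beside some of the results, and red cell values only beside those of day 7 after 1 Gy of neutrons. Values for other cell types of blood are not given. The hepatocyte level was also fitted as a covariate, whereas the part of the B cell and red cell shifts was not tested. Because whole blood was measured, fewer cells of a type and less ribosomal protein mRNA per cell cannot be told apart.

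A level here is the log2 signal of a gene's probe after scaling, and every comparison was made under 2 scalings. Median centring, after the median normalization named in the study's methods, subtracts each array's median. A level then counts doublings above the typical probe of the same array. Quantile normalization instead gives all arrays the same distribution of signals. A gene was called where limma's test gave p under 0.001 and a false discovery rate under 5%, over all 16118 genes. Values are median centred unless the quantile scale is named.

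Averaged over the 77 members, the level per mouse fell into 3 patterns. At day 1 the 5 controls had means of 7.60, 7.67, 7.43, 7.12 and 7.64, and the 6 mice given 1 Gy of neutrons had 6.83, 7.04, 6.62, 6.87, 7.07 and 7.05. The 5 mice given 4 Gy of x-rays had 7.02, 6.98, 7.02, 6.74 and 6.92, so every mouse of these groups lay below every control. The 6 mice given 1 Gy of x-rays had 7.42, 7.61, 7.77, 7.32, 7.63 and 7.61, within or above the range of the controls. At day 7 the controls ran from 7.67 to 7.82. All 6 mice given 4 Gy of x-rays were lower, at 7.07, 7.15, 7.44, 7.27, 7.35 and 6.60, and all 6 given 1 Gy of neutrons were higher, at 8.26, 8.46, 8.63, 8.03, 8.64 and 8.47. After quantile normalization this last group turned: its means of 15.86 to 15.98 lay below the 16.27 to 16.57 of the controls.

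**Figure D1:**
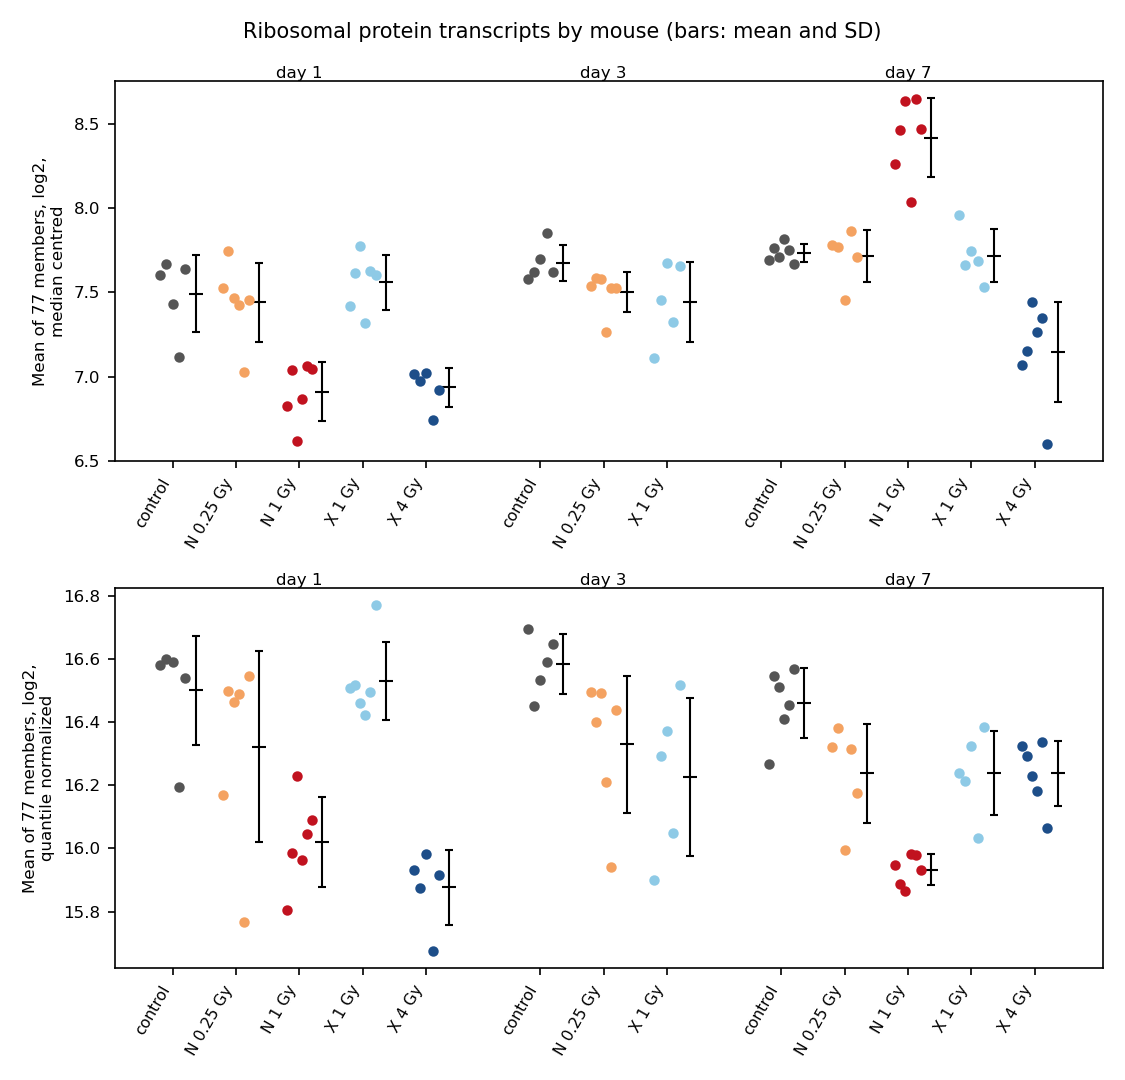
Mean level of the 77 ribosomal protein transcripts in each of the 72 mice (points), by exposure (N, neutrons; X, x-rays) and day, on the log2 scale after median centring (upper) and quantile normalization (lower), with group mean and SD. Mice at day 7 after 1 Gy of neutrons lie above all day 7 controls in the upper panel (8.03 to 8.64 against 7.67 to 7.82) and below them in the lower one.

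At day 1 after 1 Gy of neutrons, 29 ribosomal protein transcripts fell and 1, Rps27l, rose. Thus 30 of the 77 members were called where 16.5% of all genes were (10.9% lower, 5.63% higher). The median difference from controls was -0.64 on the log2 scale, against -0.08 over all genes tested, and the members ranged from -1.06 to 1.58. Both subunits took part, with 13 small- and 16 large-subunit members lower. Quantile normalization gave 19 falls and 1 rise (all genes, 17.9% called; 12.3% lower, 5.57% higher), the median was -0.48, and 17 members fell under both scalings. Among 57 members with several probes, all probes of a gene had 1 sign in 56 (quantile 54). Groups did not overlap for 32 members (all genes, 19.6%). Centring on spike-in controls gave a median of -0.35, and normexp background correction gave -0.56.

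The largest fall with no overlap was that of Rps3, a small-subunit protein that also takes part in DNA repair. Its levels were 6.61, 6.64, 6.45, 6.10 and 6.66 in the controls and 5.36, 5.53, 5.45, 5.49, 5.53 and 5.24 after 1 Gy of neutrons. Every exposed mouse was lower by more than the spread of either group, a difference of -1.06 (SE 0.13, adjusted p = 0.000416; quantile -1.16). Rps27a, which is made as a fusion with ubiquitin, fell by 0.90, and Rpl13a, which also serves in translational silencing, fell by 0.87. Rpl22, needed for the development of T cells, fell by 0.96, and Rpsa, also known as the laminin receptor precursor, by 0.72. Of these Rps3 and Rpl13a were also called on the quantile scale, and Rps27a, Rpl22 and Rpsa were not. The call of Rpl22 was lost in 8 of the 11 fits that each left out 1 mouse, and that of Rpsa without control replicate 2 or 5. Rpl5 (-0.73, adjusted p = 0.0135) and Rpl11 (-0.45), the Mdm2 binders, did not pass the test, nor did Rps6, Rps19, Rps24, Rpl23, Rpl26, Rpl38 or the stalk proteins Rplp0, Rplp1 and Rplp2.

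The count of called members depended on single libraries. It was 12, 10, 12 and 10 without control replicate 1, 2, 3 or 5, and 13, 17 and 18 without neutron replicate 1, 2 or 3, and it was 44 without control replicate 4, the control with the lowest member mean. Calls over all genes also fell, from 2663 to 1810 without control replicate 2. Within the scan date that 4 exposed and all 5 control arrays shared, the median was -0.72 and 75 of 77 members were negative. Mean hepatocyte level per mouse, over the 6 tested of 11 listed markers, was 6.13, 1.09, 7.07, 8.11 and 1.87 in the controls and 9.04, 8.29, 8.46, 1.06, 8.88 and 8.20 in the exposed mice, and none of the 6 markers passed the test. Exposed replicate 4, with the hepatocyte level of 1.06, had a member mean of 6.87. The 2 controls with the lowest hepatocyte levels had 7.67 and 7.64. This rests on 1 exposed array, and the cause of its value was not tested. With the hepatocyte level as a covariate, 10 members were called (9 lower, 1 higher) where 12.1% of all genes still were, and the median of the 77 was -0.58. The mean over the 10 B cell markers was 2.11 to 2.87 in the controls and -1.39 to 0.61 in the exposed mice, and 10 of 10 fell. The part of this shift in the members' fall was not tested.

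Among mice given 4 Gy of x-rays, 21 members fell at day 1 and Rps27l and Rps4l rose. The 23 called were 29.9% of the members, close to the 29.6% of all genes that were called (16.8% lower, 12.8% higher). The median was -0.61 against -0.10 over all genes, with members from -1.33 to 2.45. After quantile normalization 31 fell and 2 rose (all genes, 30.2%; 18% lower, 12.2% higher), the median was -0.64, and all 21 falls were called under both scalings. Groups did not overlap for 44 members, against 38.9% of all genes.

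Rps15, a protein of the small-subunit head, fell most. Its levels were 6.89, 7.27, 6.97, 6.50 and 7.02 in the controls and 5.89, 5.71, 5.71, 5.30 and 5.37 after 4 Gy of x-rays, with no overlap. The difference was -1.33 (SE 0.19, adjusted p = 0.00021; quantile -1.56). Rpl5 fell by 1.11 (SE 0.19, adjusted p = 0.000706; quantile -1.39), whereas Rpl11, its partner in binding the small ribosomal RNA of the large subunit, differed by -0.30 and was not called. Rps3 fell by 0.89, Rps27a by 0.86, Rpl13a by 0.94 and Rps4x by 0.73. Rps19, the gene most often mutated in Diamond-Blackfan anaemia, fell only on the quantile scale, by 0.94. Leaving out 1 mouse ended the call of Rps27a in 9 of 10 fits and that of Rps4x in 8, and those of Rps15, Rpl5, Rps3 and Rpl13a in none.

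Here too single libraries moved the count, to 15, 14, 15 and 12 without control replicate 1, 2, 3 or 5, to 15 without x-ray replicate 4 or 5, and to 40 without control replicate 4. Calls over all genes also fell, from 4769 to 3471 without control replicate 5. All 5 exposed mice had high hepatocyte levels (9.01 to 9.74, with 1 of 6 markers called higher), above every control. With that level as a covariate the call of every member that fell was lost and only Rps27l was still called, and the share of all genes called dropped to 6.33%, while the members' median was -0.37. The mean over B cell markers was -2.15 to -0.95, and 10 of 10 were called lower. These arrays shared no scan date with the controls.

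Rps27l and Rps27, whose proteins are close relatives in the small subunit, moved in opposite directions at day 1. Rps27l levels were 2.51, 2.74, 3.05, 3.33 and 2.59 in the controls, 4.83, 3.85, 4.84, 3.81, 5.03 and 4.2 after 1 Gy of neutrons, and 5.21, 5.83, 5.98, 4.77 and 4.66 after 4 Gy of x-rays. No mouse of either exposed group overlapped the controls, and the rises were 1.58 (SE 0.26, adjusted p = 0.00138; quantile 1.43) and 2.45 (SE 0.29, adjusted p = 7.44e-05; quantile 2.22). Rps27 levels were 9.33, 9.25, 8.86, 8.54 and 9.19 in the controls, 8.11, 8.45, 7.80, 7.95, 8.34 and 8.19 after neutrons, and 8.14, 8.01, 8.01, 8.04 and 8.27 after x-rays. Rps27 thus fell by 0.89 (SE 0.18, adjusted p = 0.0032; quantile -0.78) and by 0.94 (SE 0.18, adjusted p = 0.00119; quantile -1.02), again with no overlap. After neutrons its call was lost without control replicate 1, 2 or 5, and after x-rays without control replicate 5. Adding the hepatocyte level left Rps27l called, at 1.36 and 2.06, and ended the call of Rps27, at -0.85 and -0.61. After neutrons the call of Rps27l was lost with normexp background correction (1.61) and with replicate number as a block (1.63). Normexp also ended the call of Rps27 after both exposures (-0.85 and -1.31), and the replicate block ended it after x-rays (-0.94).

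At the other doses and days Rps27l was not called. After 1 Gy of x-rays at day 1 it was 4.37, 3.29, 3.17, 3.94, 4.2 and 4.24, a difference of 1.03 (SE 0.25, adjusted p = 0.0193). After 0.25 Gy of neutrons it was 3.52, 2.79, 3.35, 3.53, 5.72 and 3.61, a difference of 0.91 (SE 0.43, adjusted p = 0.34) in which replicate 5 stood far above the rest. That mouse also had the highest hepatocyte level of its group (10.05) and the lowest B cell level (-0.21). Differences were 0.65 and 0.25 at day 3 after 0.25 Gy of neutrons and 1 Gy of x-rays. At day 7 they were -0.31, -0.36 and -0.11 after 0.25 and 1 Gy of neutrons and 1 Gy of x-rays, and 0.42 (SE 0.14, adjusted p = 0.035) after 4 Gy of x-rays. Cdkn1a, the p53 target that halts the cell cycle, rose at day 1 by 4.19 after 1 Gy of neutrons, by 3.10 after 1 Gy and by 4.14 after 4 Gy of x-rays, and Mdm2 was not called in any of these (0.51, 0.39 and 0.60).

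**Figure D2:**
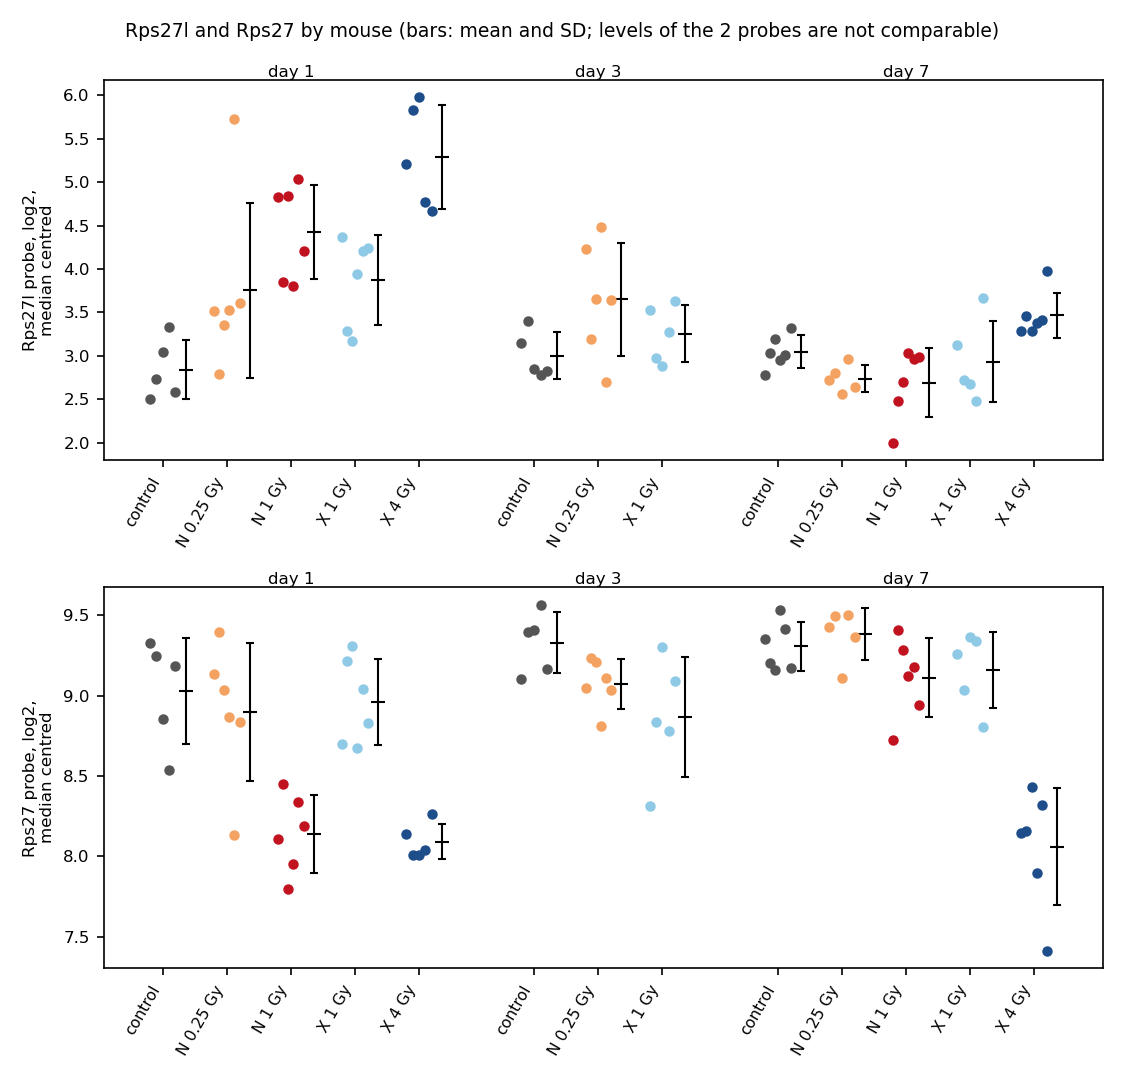
Levels of the Rps27l probe (upper) and the Rps27 probe (lower) in each mouse, log2 and median centred, by exposure and day, with group mean and SD. At day 1 all mice of the 1 Gy neutron and 4 Gy x-ray groups lie above the controls for Rps27l (3.81 to 5.98 against 2.51 to 3.33) and below them for Rps27 (7.80 to 8.45 against 8.54 to 9.33).

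Rps4l, an autosomal relative of the X-linked Rps4x, was the other member that rose. Its probe, the dimmest of the 77, read 0.42, 0.51, 0.78, 1.57 and 0.54 in the day 1 controls and 2.40, 2.99, 3.61, 2.11 and 1.88 after 4 Gy of x-rays. The groups did not overlap and the rise was 1.84 (SE 0.34, adjusted p = 0.00095; quantile 1.61), while Rps4x fell. With the hepatocyte level as a covariate it was 1.33 (adjusted p = 0.0733) and no longer called. After 1 Gy of neutrons at day 1 and 4 Gy of x-rays at day 7 Rps4l differed by 0.89 and 0.88, neither called.

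No member was called at day 1 after 0.25 Gy of neutrons or the lower x-ray dose, or at day 3 after either exposure tested. After 1 Gy of x-rays at day 1 the median was 0.04 (quantile 0.01), and 6.44% of all genes were called, while 2 members had an unadjusted p under 0.05 (quantile 7.01% of genes and 6 members). At 0.25 Gy of neutrons and day 1 the median was -0.07 (quantile -0.19, normexp background correction 0.19), 0.0062% of genes were called (quantile 0.0186%), and 0 members (quantile 3) had an unadjusted p under 0.05. At day 3 the medians were -0.20 after 0.25 Gy of neutrons (1.61% of genes called, quantile 2.13%) and -0.23 after 1 Gy of x-rays (1.66%, quantile 1.09%), with 12 and 6 members at an unadjusted p under 0.05 (quantile 22 and 17). The quantile medians there were -0.28 and -0.35, and centring on spike-in controls gave -0.23 and -0.83. The study's random-variance test also called 0 members in each of these. Leaving out replicate 2 or 3 of 1 Gy of x-rays at day 1 gave 1 call. The 1 Gy x-ray mice at day 1 had hepatocyte levels of 4.43 to 8.63 with member means of 7.32 to 7.77, and in them 8 of 10 B cell markers fell (means 1.28 to 1.88).

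**Figure D3:**
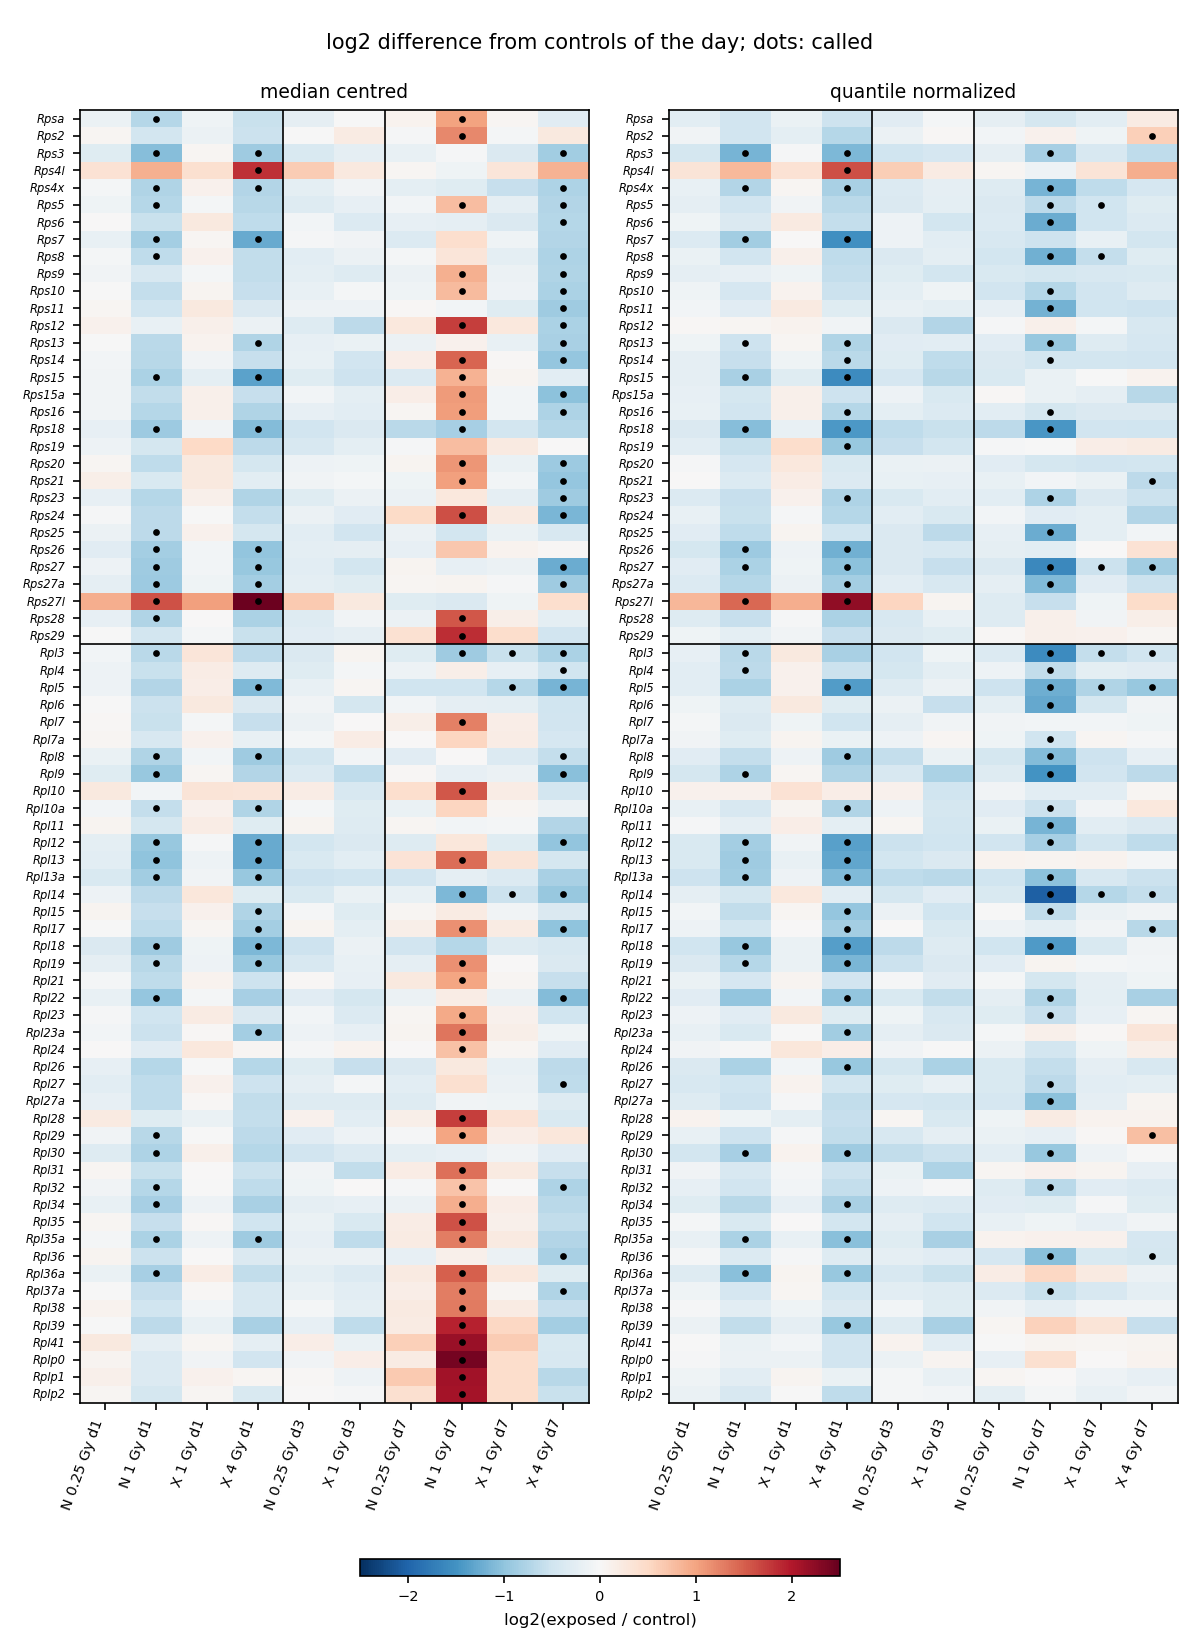
Difference from the controls of the day for 75 of the 77 members (rows, small subunit above the line) in each of the 10 exposures and days (columns), as colour on the log2 scale, after median centring (left) and quantile normalization (right), with a dot where called. Day 1 columns for 1 Gy of neutrons and 4 Gy of x-rays are mostly below 0 in both panels, with Rps27l and Rps4l as the highest, and the day 7 column for 1 Gy of neutrons changes from high to low between the panels.

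At day 7 after 1 Gy of neutrons the direction of the members depended on the scaling. The study reported mostly lower genes in this group, with translation enriched among the lower ones. Median centring here did not reproduce that balance, and the cause was not tested. After median centring 40 rose and 3 fell, 43 called where 36.1% of all genes were (18.4% higher, 17.7% lower), with a median of 0.77 and a range of -1.13 to 2.39. On the quantile scale none rose and 37 fell (all genes, 36.5%; 13.7% higher, 22.8% lower), with a median of -0.50 and a range of -2.04 to 0.58, and 7 members were called higher under one and lower under the other. The median over all genes itself moved, from -0.06 to -0.19. What both scalings shared was a fall of Rpl3, which lies near the ribosome's catalytic centre, of Rpl14 and of Rps18, the last named after its values were seen. Groups did not overlap for 41 members under each scaling, against 34.5% of all genes (quantile 34.7%). Probes of a gene differed in sign for 11 of 57 members (quantile 16). Only 1 exposed array shared a scan date with the 6 controls, so scan date as a block left 1 exposed mouse against 6.

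Before any scaling, both the members and the arrays were dim. The mean log2 signal of the members was 14.92 against 16.23 in the controls, a difference of -1.30, while the array median differed by -1.99. The members had thus lost less signal than the typical probe. The 39 brighter members (mean log2 signal 16.29 to 18.61) had 30 called higher and 1 lower with a median of 1.05, and the 38 dimmer ones had 10 and 2 with a median of 0.26. On the quantile scale the medians of these sets were -0.44 and -0.61, with 16 and 21 called lower and none higher. Centring on the array's spike-in controls, which does not subtract the array median, gave 32 members lower and none higher (median -1.34). With normexp background correction 4 were lower (median -0.72). The shares of all genes under these settings are not given, so the counts are no result about the members. The single exposed array that shared a scan date with the 6 controls had a median of 0.52, with 52 of the 75 members measured there positive (quantile -0.45).

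**Figure D4:**
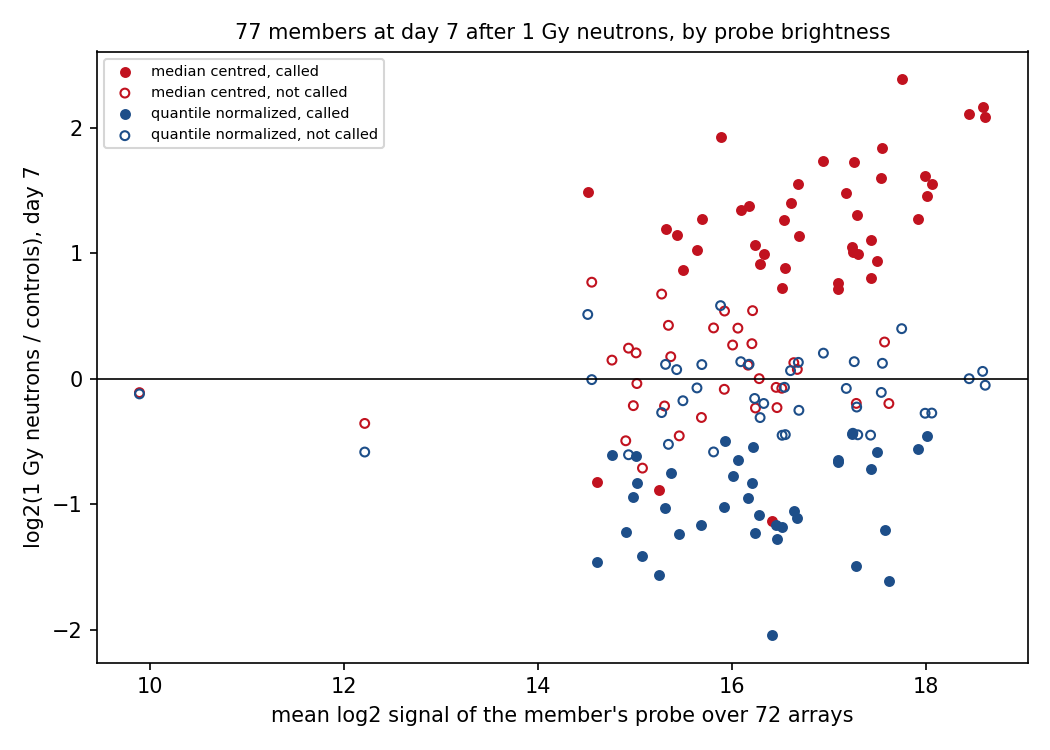
Difference from controls at day 7 after 1 Gy of neutrons (log2, vertical axis) against the mean log2 signal of the member's probe over 72 arrays (horizontal axis), for the 77 members, median centred (red) and quantile normalized (blue), filled where called. The red points of the brighter members lie highest, up to 2.39 for Rplp0, and none of the blue points above 0 is filled.

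The stalk proteins, which draw elongation factors to the large subunit, show the contrast most. Rplp0 levels were 9.01, 9.50, 9.09, 9.32, 9.11 and 8.75 in the controls and 11.48, 11.72, 11.52, 10.76, 11.84 and 11.77 after neutrons, with no overlap. The rise was 2.39 (SE 0.19, adjusted p = 9.99e-07). On the quantile scale the controls read 17.56, 18.46, 17.99, 17.90, 17.81 and 17.70 and the exposed mice 18.40, 18.35, 18.24, 18.10, 18.29 and 18.44, which overlapped (0.40, SE 0.15, adjusted p = 0.0334, not called). Rplp1 and Rplp2 rose by 2.11 and 2.09 after centring and differed by 0.00 and -0.05 on the quantile scale. Their probes were saturated on 3 and 2 of the 72 arrays.

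Rpl14 fell under both scalings. Its levels were 8.13, 7.96, 8.21, 8.04, 8.08 and 8.19 in the controls and 6.69, 6.92, 6.86, 7.19, 7.34 and 6.81 after neutrons, with no overlap. The difference was -1.13 (SE 0.13, adjusted p = 1.38e-05), and it was -2.04 on the quantile scale (SE 0.15, adjusted p = 7.08e-07). Rpl3 read 6.83, 6.94, 7.02, 6.79, 6.88 and 6.93 in the controls and 5.78, 5.84, 5.92, 6.11, 6.40 and 6.05 after neutrons, a fall of 0.88 (SE 0.13, adjusted p = 6.98e-05; quantile -1.56). All exposed mice lay below all controls for both genes. Rps18 fell by 0.82 (SE 0.18, adjusted p = 0.00143, quantile -1.46). Its call was lost in 6 of the 12 fits that each left out 1 mouse. It was also lost with slide or replicate number as a block, averaged probes or the hepatocyte covariate. With scan date as a block, which left 1 exposed array, the difference was -0.83.

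Among the other named members, Rps24 (1.62), Rpl10 (1.55), Rpl38 (1.31), Rpsa (1.01) and Rpl23 (0.94) rose after centring. With scan date as a block, which left 1 exposed array against the controls, they differed by 1.36, 1.17, 1.13, 0.86 and 0.73. Their quantile differences were -0.27, -0.27, -0.22, -0.43 and -0.58, of which that of Rpl23 was called lower. Rpl39, of the exit tunnel, rose by 1.92 (SE 0.20, adjusted p = 6.25e-06), and its quantile difference of 0.58, the highest of the members, was not called. Rps6 (-0.23), the substrate of the S6 kinases, Rpl5 (-0.49), Rps27 (-0.20) and Rps27a (0.07) were not called after centring and fell on the quantile scale by 1.23, 1.22, 1.61 and 1.11. Red cell markers rose in this group, 8 of 9 called, with means of 4.5 to 5.60 against 2.24 to 2.87 in the controls, and 7 of 10 B cell markers fell, with means of 0.41 to 0.89 against 2.29 to 2.56. Both shifts were in the same mice as those of the members, and their part was not tested.

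At day 7 after 4 Gy of x-rays the members were low after centring and less so on the quantile scale. Before any scaling they were not low. Their mean log2 signal was 16.37 against 16.23 in the controls, a difference of 0.15, while the array median differed by 0.73. The falls below are thus relative to the array and not a loss of unscaled signal on average. Centred, 33 fell and none rose, where 15.8% of all genes were called (8.29% lower), with a median of -0.66 against -0.05 over all genes. The lower members were 19 of the small and 14 of the large subunit. On the quantile scale 8 fell and 2 rose (all genes, 16.1%; 7.76% lower and 8.33% higher), with a median of -0.25. Among the 8 that fell under both were Rpl3, Rpl5, Rpl14, Rpl17, Rpl36, Rps21 and Rps27. Groups did not overlap for 40 members after centring, against 16.2% of genes.

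Rps27 fell most, from 9.36, 9.20, 9.16, 9.54, 9.42 and 9.17 in the controls to 8.15, 8.16, 8.43, 7.90, 8.32 and 7.41, with no overlap. The difference was -1.25 (SE 0.16, adjusted p = 0.00015; quantile -0.87). Rpl5 read 6.64, 6.61, 7.02, 6.75, 6.84 and 6.24 in the controls and 5.74, 5.49, 5.69, 5.73, 5.65 and 4.87 in the exposed mice, a fall of 1.15 (SE 0.17, adjusted p = 0.00041; quantile -0.94), also without overlap. Rpl11 differed by -0.73 and was not called. Rpl14 and Rpl3 fell by 0.95 and 0.79. Falls of Rps24 (1.15), Rpl22 (1.08), Rps27a (0.89), Rps3 (0.87), Rps4x (0.76) and Rps6 (0.72) were called after centring and not on the quantile scale. Leaving out 1 mouse ended the call of Rps27a in 8 of 12 fits, of Rps24 in 6 and of Rps3 in 4. The 2 members that rose on the quantile scale were Rps2 and Rpl29, named after their values were seen. With spike-in centring or normexp no member was called, while the medians were -0.43 and -0.81. The share of all genes called there is not given, so the absence of calls is no result about the members.

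Hepatocyte levels in these 6 mice were -2.63, 5.61, -1.48, 6.99, -1.79 and 8.16, against -2.98 to -0.25 in the controls. The 3 mice within the control range (replicates 1, 3 and 5) had member means of 7.07, 7.44 and 7.35, which like those of the other exposed mice lay below all 6 controls. The cause of these values was not tested. With the hepatocyte level as a covariate 11 members fell and none rose (median -0.52), where 11% of all genes were called, Rps27, Rpl5, Rpl14 and Rpl3 among them. All 10 B cell markers were called lower, with means of -0.57 to 0.05. These arrays were all scanned on a date when no control was, so scan date and exposure cannot be told apart.

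After 1 Gy of x-rays at day 7, 3 members fell and none rose, where 3.74% of all genes were called (1.17% lower). The median was -0.04 after centring, -0.22 on the quantile scale, -1.06 with spike-in centring and 0.097 with normexp. The 3 were Rpl5 (-0.72, SE 0.15, adjusted p = 0.0189; quantile -0.75), Rpl3 (-0.56, SE 0.10, adjusted p = 0.00901; quantile -0.59) and Rpl14 (-0.53, SE 0.11, adjusted p = 0.0205; quantile -0.71). Rpl5 levels of 6.12, 5.91, 6.17, 5.85 and 5.76 lay below all controls, as did Rpl14 levels of 7.75, 7.40, 7.73, 7.39 and 7.60 and Rpl3 levels of 6.45, 6.17, 6.37, 6.33 and 6.37. Rpl3 and Rpl14 were thus called lower at day 7 after 1 Gy of neutrons and after both x-ray doses, under both scalings, in comparisons that share their 6 controls. With normexp both calls were lost after 1 Gy (-0.39 and -0.37) and after 4 Gy of x-rays (-0.92 and -1.13). Replicate number as a block ended both after 1 Gy of x-rays. There the call of Rpl14 was also lost with averaged probes, the hepatocyte covariate and in 7 of 11 fits that each left out 1 mouse. No 1 Gy x-ray array of day 7 shared a scan date with those controls, and with slide as a block 1 of the 3 calls after 1 Gy of x-rays was left, that of Rpl3, where 2.14% of all genes were called. Quantile normalization gave 6 falls after 1 Gy of x-rays (all genes, 4.1%; 1.43% lower). The centred count was 1 without control replicate 1, 3, 4 or 5 or x-ray replicate 2 or 4. Calls over all genes also fell, from 603 to 443 without control replicate 1. After 0.25 Gy of neutrons at day 7 limma called 0 members (0.732% of genes, quantile 0.124%), with 15 members at an unadjusted p under 0.05 (quantile 0 and 29), and the random-variance test called 0. The median there was -0.03 after centring, -0.23 on the quantile scale, -1.16 with spike-in centring and -1.04 with normexp.

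Neutrons and x-rays were also compared with each other, first at the same dose. At day 1, 47 members were lower after 1 Gy of neutrons than after 1 Gy of x-rays and none was higher, where 9.68% of all genes were called (8.39% lower), with a median of -0.69 against -0.01 over all genes. Of these 21 were of the small and 26 of the large subunit, and 31 were also called on the quantile scale, where 34 were lower (all genes, 9.78%; 8.2% lower). Groups did not overlap for 53 members, against 12.2% of genes. The largest differences included Rps3 (-1.10, SE 0.11, adjusted p = 0.000377), Rpl3 (-0.96, SE 0.14, adjusted p = 0.00134) and Rps19 (-0.95, SE 0.16, adjusted p = 0.00204), and Rpl5 was lower by 0.89. Rps27l did not pass the test (0.56, SE 0.29, adjusted p = 0.188). With scan date or slide as a block no member was called, nor was any of the 16118 genes. Within the scan date the groups shared, 2 neutron against 4 x-ray arrays, the median was -0.46 and 74 of 77 members were negative.

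Against 4 Gy of x-rays at day 1, limma called 0 members after 1 Gy of neutrons and 0.0186% of genes (quantile 0 and 0.0372%). With slide as a random block it called 3 members, 1 higher and 2 lower, and 13.3% of genes. The median turned with the scaling, from -0.02 after centring to 0.13 on the quantile scale, where 59 of 77 members were positive, 0.34 with spike-in centring and 0.42 with normexp. Centred, 5 members had an unadjusted p under 0.05 (quantile 15), and the random-variance test called 0. Rps27l differed by -0.86 (SE 0.32), Rps4l by -0.95 (SE 0.35) and Rps15 by 0.53 (SE 0.15; quantile 0.76), the groups of Rps15 not overlapping. A p that misses the threshold does not show that the exposures acted alike.

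At day 7 the contrast between radiation types turned with the scaling. Against 1 Gy of x-rays 38 members were higher after 1 Gy of neutrons and none lower (all genes, 19.8% called; 13% higher), with a median of 0.71, and on the quantile scale 18 were lower and none higher (all genes, 18.1%; 10.4% lower), with a median of -0.28. With slide as a block none of the 38 centred calls was left (all genes, 2.32%), and with scan date or replicate number as a block 22 and 16 members were called (all genes, 6.97% and 6.15%). Against 4 Gy of x-rays 53 were higher and 1 lower (all genes, 36.7%; 22.5% higher, 14.2% lower), with a median of 1.17, and on the quantile scale 4 were higher and 27 lower (all genes, 38.1%; 17% higher, 21% lower), with a median of -0.32. Scan date as a block left there 1 neutron array against the 6 x-ray arrays of its date, with a median of 1.23. Among the members higher under both scalings were Rpl39 (2.77, quantile 1.15), Rps12 (2.51, quantile 0.53) and Rps21 (1.99, quantile 0.58), and Rps4l (-0.99, quantile -1.02) was lower under both. Rps12 and Rps21 were named after their values were seen.

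The change from day 1 to day 7 was tested as the day 7 difference from controls minus the day 1 difference. For 1 Gy of neutrons it was called higher in 54 members and lower in Rps27l (all genes, 24% called, 16.1% higher and 7.89% lower). By sign alone 73 members were positive and 4 negative, with a median of 1.40. On the quantile scale 3 were called higher and 9 lower (all genes, 21.9%, 12.3% higher and 9.61% lower), with a median of 0.00. Rps27l fell between the days by 1.94 (SE 0.32, adjusted p = 5.45e-05; quantile -2.01). Higher under both scalings were Rpl39 (2.58, quantile 1.20), Rpl36a (2.32, quantile 1.55) and Rpl35a (2.07, quantile 0.90), of which Rpl36a and Rpl35a were named after their values were seen. For 4 Gy of x-rays 3 members were higher and Rps27l was lower (all genes, 19.8%; 11.4% and 8.43%), by 2.03 (SE 0.31, adjusted p = 5.24e-05; quantile -1.77). The 3 were Rps15 (1.06, quantile 1.65), Rps26 (1.01, quantile 1.57) and Rpl29 (0.95, quantile 1.37), and quantile normalization gave 14 higher and 1 lower (all genes, 19.6%; 12.7% and 6.92%), the median turning from -0.06 to 0.36. The Rps15 call was lost without control replicate 2 or x-ray replicate 5 of day 1. Without replicate 6 of 4 Gy of x-rays at day 7 the count of 4 became 8. For 1 Gy of x-rays Rpl3 (-0.86, quantile -0.85) and Rpl14 (-0.81, quantile -0.98) were lower (all genes, 7.2%; 2.17% lower), with 4 lower on the quantile scale (all genes, 7.53%; 2.03% lower), and 1 of the 2 was still called without control replicate 3 of either day, x-ray replicate 5 or 6 of day 1, or x-ray replicate 2 or 4 of day 7.

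Other genes of protein synthesis were set beside the members as whole lists. Of 8 tested elongation factors and other TOP mRNAs, 3 fell at day 1 after 1 Gy of neutrons (10.9% of all genes) and 3 after 4 Gy of x-rays (16.8% of all genes), with medians of -0.51 and -0.59 close to those of the members. At day 7 after 1 Gy of neutrons their median was 0.91, or -0.17 on the quantile scale, and after 4 Gy of x-rays it was -0.60 or -0.20. Tpt1, the translationally controlled tumour protein, rose by 2.07 after centring at day 7 after 1 Gy of neutrons (quantile -0.09), and Eef1a1, which brings tRNA to the ribosome, differed by 0.72 and was not called (quantile -0.51). Fau, whose product is a small-subunit protein fused to a ubiquitin-like protein, differed there by 0.36 (quantile -1.16, called).

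Ribosome assembly factors had medians below 0 in each of these comparisons under both scalings. Of 30 tested, 3 fell at day 1 after 1 Gy of neutrons (median -0.47), where 10.9% of all genes did, and 8 after 4 Gy of x-rays (-0.63), where 16.8% did. After 1 Gy of neutrons at day 7, 20 fell (17.7% of all genes) and 1 rose, with a median of -0.78 (quantile -0.90 with 22 lower). With 4 Gy of x-rays at that day 5 fell (8.29% of all genes) and 2 rose, with a median of -0.18. Npm1, a nucleolar chaperone of ribosome assembly, fell by 0.82 and by 1.03 in the day 1 comparisons. Of 13 RNA polymerase I genes, which make the ribosomal RNA, 7 fell at day 7 after 1 Gy of neutrons (median -0.78) and 3 after 4 Gy of x-rays at day 1 (median -0.54).

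Mitochondrial ribosomal proteins, which serve the separate ribosome of that organelle, had other values. After 4 Gy of x-rays at day 1, 14 of 76 rose (12.8% of all genes) and none fell (16.8% of all genes). The median was 0.68 (quantile 6 and 1, 0.45). After 1 Gy of neutrons at that day limma called none (16.5% of all genes), with a median of 0.22. At day 7 after 1 Gy of neutrons 33 fell and 5 rose (17.7% and 18.4% of all genes), with a median of -0.51 (quantile 41 and 2, -0.64). After 4 Gy of x-rays at that day 4 fell and 2 rose (8.29% and 7.55% of all genes), with a median of 0.00. Of 28 initiation factors at most 13 were called in any of the 4 comparisons, 5 higher and 8 lower at day 7 after 1 Gy of neutrons. There 36.1% of all genes were called. Of 9 tested p53 pathway genes 5 rose at day 1 after 1 Gy of neutrons, 5 after 1 Gy and 5 after 4 Gy of x-rays, and 5 at day 7 after 4 Gy of x-rays, with medians of 0.81, 0.68, 0.84 and 0.75. Of all genes 5.63%, 2.59%, 12.8% and 7.55% rose in these.

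**Figure D5:**
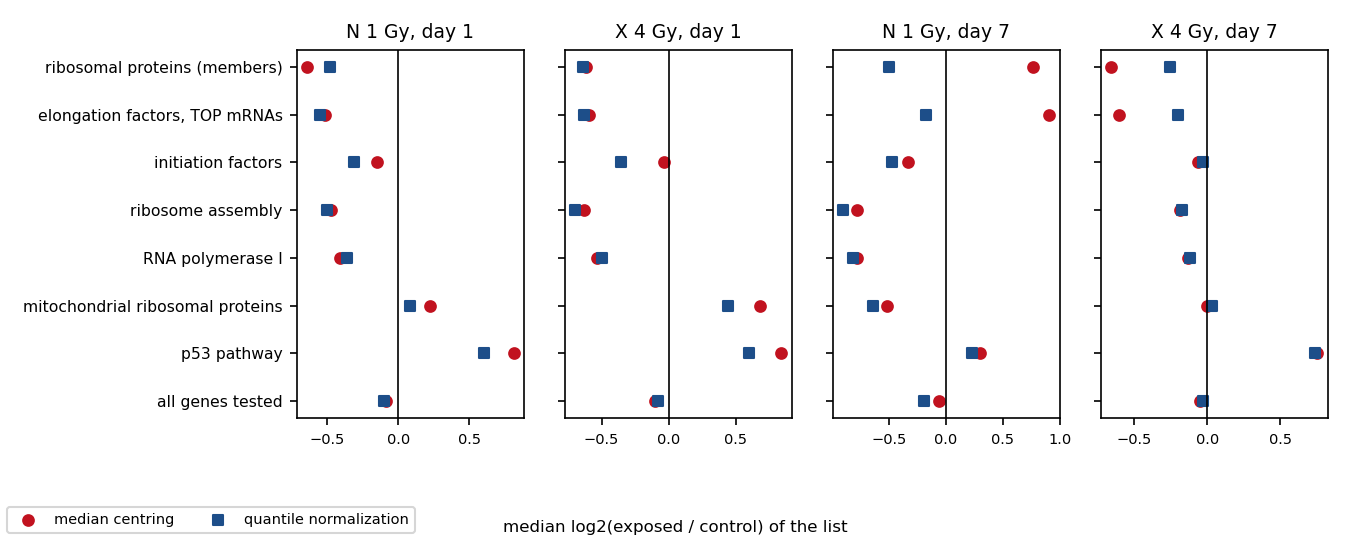
Median log2 difference from controls of the day over the genes of each list (rows) in 4 comparisons (panels), after median centring (circles) and quantile normalization (squares), with the 77 members in the top row and all 16118 genes in the bottom row. The members (0.77 and -0.50) and the other TOP mRNAs (0.91 and -0.17) change sides with the scaling at day 7 after 1 Gy of neutrons, whereas the median of the ribosome assembly genes is below 0 in all 4 panels.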

How the data were processed

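The deposited files held 1 scanner output per array (Agilent mouse arrays, 72 mice in 13 groups); the authors had extracted the signals with Agilent Feature Extraction 12.0.2, per the submitters' processing notes. The deposited intensity was the processed signal, background corrected by that software. It was taken to log2 and centred on each array's median, as in the study's methods, or quantile normalized. Probes flagged or not above background on 25% or more of the arrays were left out, and the brightest probe stood for each gene. Groups were compared on the log2 scale with limma 3.58.1 in R 4.3.3 (statmod 1.5.0 for random blocks), each comparison in a fit of its own groups, with p under 0.001 and a Benjamini-Hochberg rate under 5%. The number of arrays limits the precision. Scripts were tested on simulated data.

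The methods' filter on genes varying 1.5-fold in 20% of arrays was an alternative, as were spike-in centring, normexp (offset 50), probe averaging, blocks for scan date, slide and replicate number, and each mouse left out. Slide block, hepatocyte level, unscaled signal, within-date values and leaving out mice on the quantile scale were chosen after seeing the data. The members and lists were chosen with earlier results of these data known. Named members were a fixed list by role, the largest called rise and fall without overlap per comparison with controls, and those said to be named after their values were seen. Values of some named genes are not reported here. The authors' deposited table of log2 values was checked against the arrays: 12 of 72 columns followed their own array, 39 another array of the same group and 21 an array of another group, so it served only for 0.25 Gy of neutrons at day 1, where it called 0 members. All values here rest on the labels of the scanner outputs. The names of these outputs gave the labelled exposure and day for 72 of 72, and the 72 columns of the table stood in the order that the same names take when sorted with the separator first.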

Additional observations from a re-analysis of the deposited data

Results flagged for a closer look

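Single mice stood far from the rest of their group in 16 of 130 checks with Dixon's ratio, each of 1 measure in 1 of the 13 groups. These checks share mice and related genes and are not independent, so their number is not set against a rate by chance. At day 1, after 0.25 Gy of neutrons, replicate 5 had Rps27l at 5.72 (next 3.61) and Rpl5 at 4.99 (next 6.30), and after 1 Gy of neutrons replicate 5 had Rpl5 at 6.36 (next 5.70). Rps15 was 6.34 in replicate 4 of 1 Gy of x-rays and Rps3 was 5.37 in replicate 4 of 4 Gy of x-rays, both low. On the quantile scale the member mean was 16.19 in control replicate 4 of day 1 (next 16.54) and 16.77 in replicate 6 of 1 Gy of x-rays at day 1 (next 16.52).

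At day 3 replicate 4 of 0.25 Gy of neutrons had a low member mean of 7.27 (next 7.52), and replicate 1 of 1 Gy of x-rays had high Rpl3 (7.46) and Rplp0 (9.93). At day 7 replicate 3 of 0.25 Gy of neutrons was low for Rpl14 (7.55) and Rps15 (6.31), and replicate 4 of 1 Gy of neutrons was the lowest for Rplp0 (10.76, next 11.48). Replicate 6 of 4 Gy of x-rays at day 7 was low for Rpl14 (6.71) and Rpl5 (4.87), high for Rps27l (3.98), and had the highest hepatocyte level of its group (8.16).

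Differences between days were marked by the test of the day 7 minus the day 1 effect. They were those of Rps27l after 1 Gy of neutrons (-1.94) and 4 Gy of x-rays (-2.03), of Rplp0 after 1 Gy of neutrons (2.72, quantile 0.54 and not called) and of Rps15 after 4 Gy of x-rays (1.06).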

How the results depend on the processing

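Named results kept direction and call in 906 of 1184 settings, lost the call in 265 and turned in 13. Member counts stayed within 1.5 times in 344 of 453 settings and medians within the spread in 410 of 453. The study's random-variance test changed no count. The cause of the changes below was not tested. Most counts below stand without the share of all genes called in the same fit, so they describe the settings and not the members.

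Quantile normalization gave, at day 7, 37 members called against 43 after 1 Gy of neutrons, 6 against 3 after 1 Gy and 10 against 33 after 4 Gy of x-rays, 18 against 38 for neutrons over 1 Gy and 31 against 54 over 4 Gy of x-rays. For the change between days it gave 12 against 55 (1 Gy of neutrons), 4 against 2 (1 Gy of x-rays) and 15 against 4 (4 Gy of x-rays). Medians turned to -0.50 (1 Gy of neutrons, day 7), -0.28 (over 1 Gy of x-rays) and -0.32 (over 4 Gy), and medians near 0 went from -0.023 to 0.13 (1 Gy of neutrons over 4 Gy of x-rays, day 1) and from -0.058 to 0.36 (change after 4 Gy of x-rays). In the first of these Rpl10 (-0.27), Rpl23 (-0.58), Rpl29 (-0.20), Rpl38 (-0.22), Rplp2 (-0.051), Rps15 (-0.17), Rps24 (-0.27) and Rpsa (-0.43) turned.

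Spike-in centring gave, against controls, 1 called member in place of 30 (1 Gy of neutrons, day 1), 7 of 23 (4 Gy of x-rays, day 1), 8 in place of 0 (0.25 Gy of neutrons, day 7), 32 of 43, all lower (1 Gy of neutrons, day 7), 1 of 3 (1 Gy of x-rays, day 7) and 0 of 33 (4 Gy of x-rays, day 7). Neutrons over 1 Gy of x-rays gave 0 at days 1 and 7, neutrons over 4 Gy of x-rays 32, all lower, and the change between days 11 for 1 Gy of neutrons and 0 for both x-ray doses. Medians turned to -1.34 (1 Gy of neutrons, day 7), -0.37 and -1.16 (over 1 and 4 Gy of x-rays) and -0.99 (change between days), and the 2 near 0 to 0.34 and 0.25.

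Normexp gave, in the same order, 0, 15, 1, 4, 0 and 0 called members against controls, 0 at day 1 and 2 at day 7 for neutrons over 1 Gy of x-rays, 0 over 4 Gy, and 1, 0 and 0 for the change between days after 1 Gy of neutrons and after x-rays of 1 and of 4 Gy. Medians turned to -0.72, -0.91, -0.10 and -0.17 in the 4 comparisons just named for spike-in centring, to 0.031 at day 3 after 1 Gy of x-rays, to 0.42 and 0.13 for the 2 near 0, to 0.19 at day 1 after 0.25 Gy of neutrons and to 0.097 at day 7 after 1 Gy of x-rays. At day 7 after 1 Gy of neutrons Rpl23 (-0.56), Rpl29 (-0.51), Rpl38 (-0.24), Rps15 (-0.64) and Rpsa (-0.47) turned.

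The variation filter gave 12 and 14 members at day 1 (1 Gy of neutrons, 4 Gy of x-rays), 0 at day 7 after 1 Gy of x-rays, 25 for neutrons over x-rays at 1 Gy and day 1, and 0 for the change after 1 Gy of x-rays. Without the detection filter the counts were 15 (4 Gy of x-rays, day 1), 0 (1 Gy of x-rays, day 7) and 1 (change after 1 Gy of x-rays), and averaging probes gave 1 for the last.

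Scan date as a block gave 38 (4 Gy of x-rays, day 1), 1 (1 Gy of x-rays, day 3), 14 (1 Gy of neutrons, day 7), 0 (neutrons over 1 Gy of x-rays, day 1), 22 and 31 (neutrons over 1 and 4 Gy of x-rays, day 7), and 35 and 0 for the change after 1 Gy of neutrons and 1 Gy of x-rays. Slide as a block gave 49 and 36 at day 1 (1 Gy of neutrons, 4 Gy of x-rays), 1 (1 Gy of x-rays, day 7), 0 for neutrons over 1 Gy of x-rays at both days, 3 over 4 Gy at day 1, and 1 for the change after 1 Gy of x-rays. The hepatocyte level as a covariate gave 10, 1 and 11 (1 Gy of neutrons and 4 Gy of x-rays at day 1, 4 Gy of x-rays at day 7).

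Replicate numbers did not pair the mice: correlations of same-numbered mice ran from -0.573 to 0.659. With the replicate block 3 and 15 members were called at day 1 (1 Gy of neutrons, 4 Gy of x-rays), 1 and 20 at day 7 (x-rays of 1 Gy, of 4 Gy), and 20 and 16 for neutrons over 1 Gy of x-rays at days 1 and 7.

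Leaving out each mouse in turn gave counts of 10 to 44 and 12 to 40 at day 1 (1 Gy of neutrons, 4 Gy of x-rays), 0 to 1 (1 Gy of x-rays), 1 to 4 at day 7 after 1 Gy of x-rays, and 1 to 3 and 3 to 8 for the change after x-rays (1 Gy, 4 Gy). On the quantile scale they were 5 to 33 and 20 to 42 at day 1 (for the latter 21 without control replicate 1 or 5) and 6 to 12 at day 7 after 4 Gy of x-rays. Saturation on 3 and 2 arrays limits Rplp1 and Rplp2, and dim signal the untested Rpl3l, Rpl10l and Rpl39l.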
